A study of Mus musculus with 8 samples.

Results

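The genes described here are 10 genes of antigen presentation, of the 53801 genes in the count table, taken by symbol: H2-K1, H2-D1, B2m, Tap1, Tap2, Tapbp, Psmb8, Psmb9, Nlrc5 and Cd274. They were measured by RNA sequencing of stromal cells from MO5 melanomas, tumors grown under the skin from a B16 mouse melanoma line that expresses ovalbumin. The hosts were ADAM12-GFP mice on a C57BL/6 background, 8 to 12 weeks old at inoculation, and tumors were taken at day 8. These mice carry a bacterial artificial chromosome in which Adam12 regulatory sequence drives Cre and GFP, so GFP reports activity of the transgene and not the endogenous transcript itself. Live PDPN+ PDGFRα+ cells outside the CD45 (hematopoietic) and CD31 (endothelial) gates were split into ADAM12+ (GFP+) and ADAM12- (GFP-) cells, with 4 libraries of each. Both groups came from the same kind of tumor and host, with no other treatment. The study counts mice as its replicates, and the labels do not say whether same-numbered GFP+ and GFP- libraries came from the same mouse.

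MHC class I molecules show peptides from inside the cell to CD8+ T cells. Cytosolic proteins are cut by the proteasome, in which the inducible subunits Psmb8 and Psmb9 can replace constitutive ones. The peptides are pumped into the endoplasmic reticulum by the Tap1 and Tap2 transporter, and Tapbp (tapasin) helps load them onto a heavy chain, H2-K1 or H2-D1, paired with B2m. Nlrc5 is a transactivator of this gene set, interferon-γ raises all of these genes in many cell types, and it also raises Cd274, which encodes PD-L1, the ligand that restrains T cells through PD-1. In stroma these genes bear on whether fibroblasts can be seen by, or can inhibit, T cells.

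None of the 10 genes passed the DESeq2 test at an adjusted p under 0.05 with group as the only term, and they did not all move the same way. With the replicate number as a block in the fit, 3 of them were called, all lower in ADAM12+ cells (Cd274, Psmb9 and Nlrc5). That fit called 1492 of 14403 genes. The levels of the heavy chain H2-D1 and of B2m were on average higher in ADAM12+ cells, by 1.29-fold and 1.27-fold. The transporter genes Tap1 and Tap2, the proteasome subunit Psmb9, the transactivator Nlrc5 and Cd274 were on average lower, at 0.73, 0.67, 0.55, 0.64 and 0.62 of their ADAM12- level. H2-K1, Tapbp and Psmb8 had the smallest differences. All 10 genes passed the filter on low counts, 5 had a positive and 5 a negative log2 fold change (GFP+ over GFP-), and the median was -0.20, against -0.01 over the 15283 genes tested. Across those genes 9.42% were called, 4.66% higher and 4.76% lower. At an unadjusted p under 0.05, which 21.0% of all genes reached, 5 of the 10 genes passed with DESeq2 (H2-D1, Tap1, Tap2, Psmb9 and Nlrc5), as with edgeR. The adjusted tests of edgeR and limma called 0 and 1 of the 10 (Tap2), against 5.11% and 9.0% of all genes.

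Libraries differed in depth, from 883144 counted reads in GFP- replicate 3 to 31666734 in GFP+ replicate 4. The shallow library held only 24 reads of Psmb9, 46 of Tap2 and 63 of Cd274, so its normalised counts for these genes have exact Poisson 95% intervals of 169 to 392, 370.03 to 674 and 532 to 886, which cover counting error only. Adam12 itself had 1693, 1605, 1231 and 919.7 normalised counts in GFP- replicates 1 to 4 and 1833, 2396, 2039 and 2938 in the GFP+ replicates. The difference was 0.75 ± 0.24 on the log2 scale (SE, DESeq2 adjusted p = 0.0266), with an edgeR adjusted p of 0.0643. The Adam12 call was lost when replicate 3 or 4 of GFP-, or replicate 2 or 4 of GFP+, was left out (adjusted p from 0.0689 to 0.117). The sort markers Pdgfra and Pdpn were present in every library, and 7 of the 10 fibroblast markers were higher in ADAM12+ cells. The groups differed in tumor-cell transcripts: all 10 melanocyte markers were lower in ADAM12+ cells, and the markers took 0.555% ± 0.251 (SD, n = 4) of counts in GFP- and 0.0806% ± 0.0392 in GFP+ libraries (two-sided exact permutation test, p = 0.0286, the smallest that 70 divisions allow). The 4 tested Schwann cell markers were lower too, with a median log2 fold change of -2.42, and their part in the differences of the 10 genes was not tested. Leukocyte markers took 0.0308% ± 0.0285 and 0.0248% ± 0.0197 (exact permutation p = 0.6), with 0 of 16 tested markers called, and were highest in GFP- replicate 3 and GFP+ replicate 2, as the plot of marker sums shows.

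**Figure D1:**
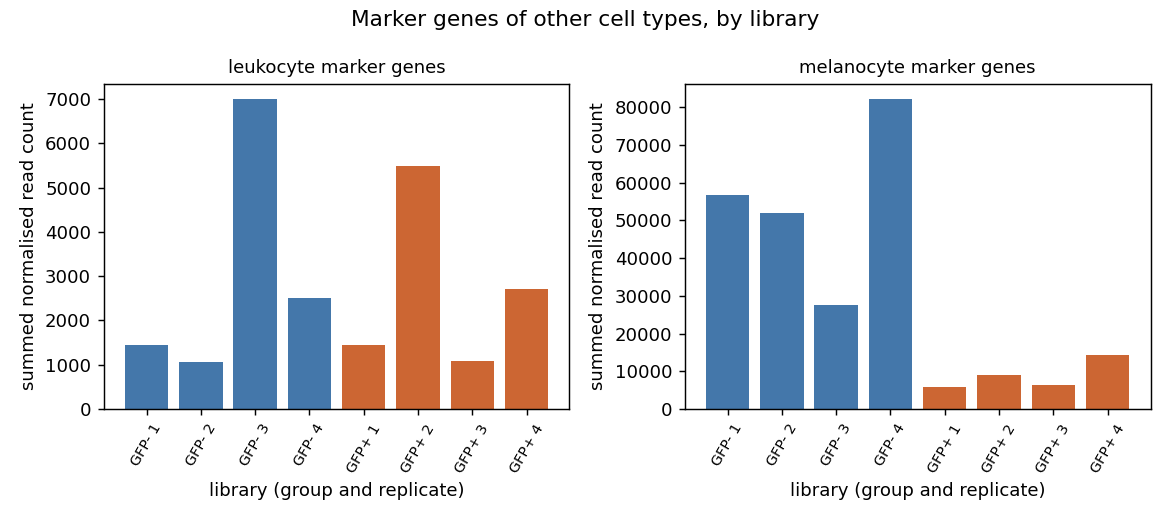
Summed normalised read counts of 19 leukocyte and 10 melanocyte marker genes (vertical axes, each from 0) in each of the 8 libraries (blue, GFP-; orange, GFP+). The melanocyte sum lay between 27611 and 82192 in the GFP- libraries and between 5781 and 14245 in the GFP+ libraries, while the leukocyte sum was highest in 1 library of each group.

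The heavy chains and B2m were the most abundant of the genes. H2-K1 and H2-D1 encode the classical heavy chains of this mouse strain, on chromosome 17 of GRCm38 at chr17:33996017-34000347 (minus strand) and chr17:35262730-35267499 (plus strand), and B2m lies at chr2:122147686-122153083 (plus strand). Stretches of their upstream sequence from RefSeq (build GRCm38.p6, 5′ to 3′, ending at the base before the transcript start) are shown because the heavy chain genes share a run of 47 bases there, written in capitals. The windows of 250 bases are at chr17:34000348-34000597 (minus strand) for H2-K1 and chr17:35262844-35263093 (plus strand) for H2-D1. The window of H2-K1 ends beside the GENCODE gene bound given above, whereas that of H2-D1 ends at a RefSeq start that lies inside the GENCODE bounds. In the window of B2m, at chr2:122147437-122147686 (plus strand), the capitals mark letters that match the core of the interferon-stimulated response element (ISRE).
H2-K1: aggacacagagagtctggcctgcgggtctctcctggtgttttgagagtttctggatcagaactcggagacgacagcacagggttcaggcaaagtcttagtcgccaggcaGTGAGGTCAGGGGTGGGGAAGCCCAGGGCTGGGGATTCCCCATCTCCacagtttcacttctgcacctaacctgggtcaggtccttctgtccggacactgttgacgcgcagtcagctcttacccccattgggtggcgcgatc
H2-D1: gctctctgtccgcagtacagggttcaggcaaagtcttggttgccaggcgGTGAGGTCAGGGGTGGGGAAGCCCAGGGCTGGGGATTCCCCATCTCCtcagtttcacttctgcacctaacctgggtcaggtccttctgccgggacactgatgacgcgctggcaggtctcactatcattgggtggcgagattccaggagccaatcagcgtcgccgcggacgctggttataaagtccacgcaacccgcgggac
B2m: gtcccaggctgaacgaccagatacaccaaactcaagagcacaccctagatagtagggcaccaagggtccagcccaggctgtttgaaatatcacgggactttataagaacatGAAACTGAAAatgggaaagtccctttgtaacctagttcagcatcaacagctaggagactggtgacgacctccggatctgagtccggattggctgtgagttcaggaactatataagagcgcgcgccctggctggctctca
The shared run lay 141 to 95 bases before the start in H2-K1 and 201 to 155 bases before it in H2-D1. It includes a κB motif (GGGG, ATT and CCCC in a row), a letter pattern of NF-κB sites searched after the run was seen, which occurs on either strand in 10 of 32817 RefSeq windows of 250 bases (0.0305%). Of the 10 genes, 8 had such a window (Tap2 and Nlrc5 had none). The ISRE core (GAAA, any 2 bases and GAAA), found in 2.97% of all windows, occurred in that of B2m only, starting 139 bases before the start. The interferon-γ activation site core TTCNNNGAA, found in 7.01% of all windows, occurred in that of Psmb8 only. Both were searched on both strands, and a match is a description of letters, not a bound site. A window without a match lacks only these exact letters, and looser forms of the elements were not searched.

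H2-K1 had 8284, 6916, 6581 and 6543 normalised read counts in GFP- replicates 1 to 4 and 8085, 6719.6, 6784 and 10718 in GFP+ replicates 1 to 4. Apart from GFP+ replicate 4, the ADAM12+ libraries lay within the range of the ADAM12- libraries. On the log2 scale H2-K1 differed by 0.19 ± 0.19 (SE, 95% interval -0.19 to 0.57, DESeq2 adjusted p = 0.643). Leaving out GFP+ replicate 4 took it to 0.02.

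H2-D1 was the only one of the 10 genes whose groups did not overlap, a pattern found in 12.3% of all genes tested. Its normalised counts were 9346, 8962, 8295 and 8164 in the GFP- and 12927, 9547, 9901 and 12459 in the GFP+ libraries. The lowest ADAM12+ library was thus just above the highest ADAM12- library, and GFP+ replicates 1 and 4 stood well above it. At 0.37 ± 0.15 on the log2 scale (95% interval 0.06 to 0.67), the difference did not pass the test over all genes (DESeq2 adjusted p = 0.124, edgeR 0.191). Reads of the 2 heavy chains can be lost or split in counting, since 12.77% of the 50-base words of H2-D1 transcripts and 9.63% of those of H2-K1 also occur in other genes, mainly each other and the H2-Q genes.

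B2m, the light chain of every class I molecule, had 8854, 8528, 6911 and 9774 normalised counts in the GFP- libraries and 9496, 8466, 11039.5 and 14209 in the GFP+ libraries. The groups overlapped, and the highest value was again that of GFP+ replicate 4. Its log2 fold change was 0.34 ± 0.20 (95% interval -0.05 to 0.73, adjusted p = 0.333), and 0.18 without GFP+ replicate 4. The level of B2m per kilobase of exon was 1.72 ± 0.275 times the summed level of both heavy chains in GFP- cells and 1.78 ± 0.300 times in GFP+ cells (SD, n = 4 each), a difference within the spread.

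**Figure D2:**
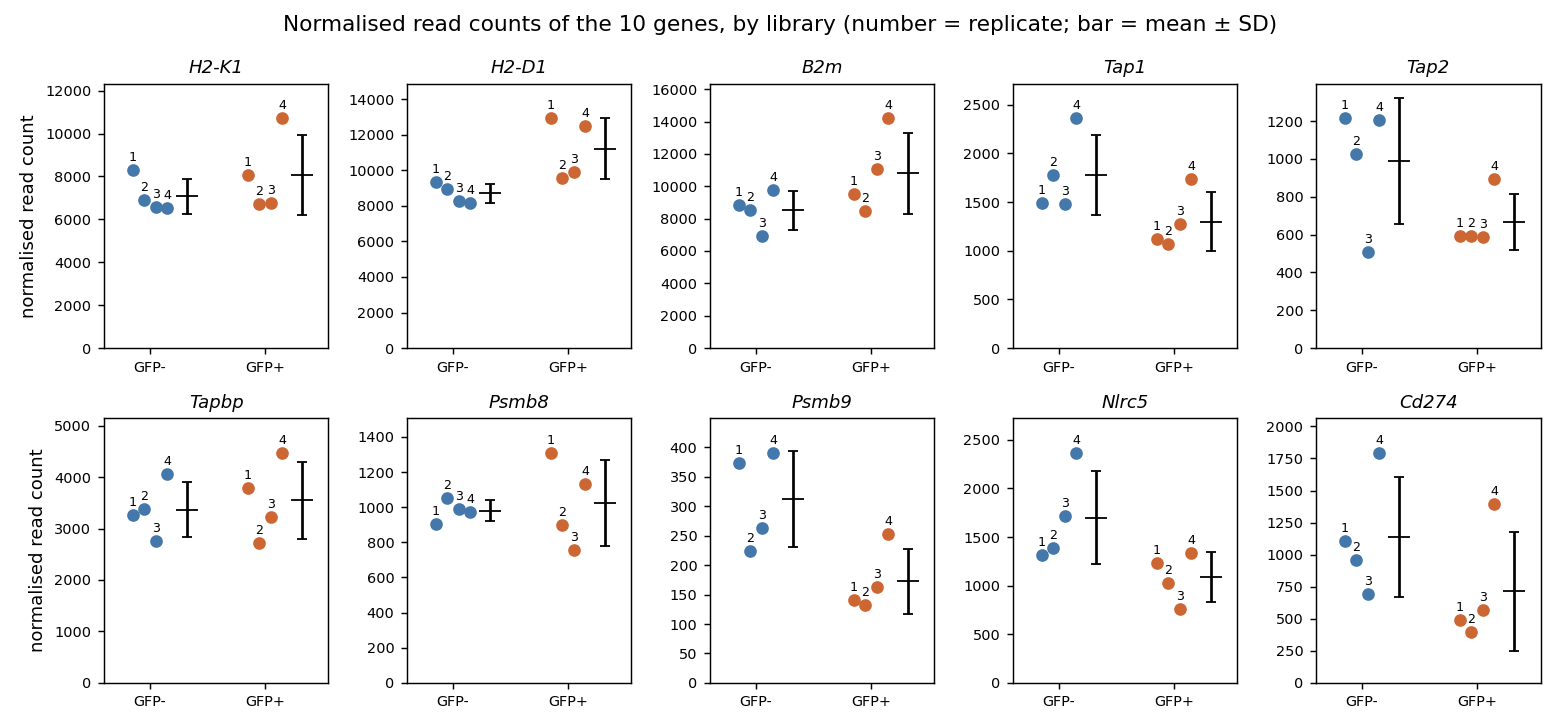
Normalised read counts (vertical axes, each from 0) of the 10 genes in the 4 GFP- (blue) and 4 GFP+ (orange) libraries; numbers are replicates, and black bars are the mean ± SD. H2-D1 is the only gene whose groups do not overlap, and GFP+ replicate 4 is the highest GFP+ library in 8 of the 10 panels.

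Of the loading machinery, the transporter genes were lower on average in ADAM12+ cells and tapasin was not. Tap1 (chr17:34187553-34197225, plus strand) had 1491, 1782, 1483 and 2362 normalised counts in the GFP- and 1123, 1071, 1271 and 1732 in the GFP+ libraries. All ADAM12+ libraries but replicate 4 lay below every ADAM12- library. Tap1 had a log2 fold change of -0.46 ± 0.23 (95% interval -0.91 to -0.01, adjusted p = 0.229). It was -0.29 without GFP- replicate 4 (adjusted p = 0.560) and -0.63 without GFP+ replicate 4 (adjusted p = 0.0503).

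Tap2, the other chain of the transporter (chr17:34203527-34216321, plus strand), had 1216, 1026, 505 and 1203 normalised counts in the GFP- and 593, 592, 588 and 892 in the GFP+ libraries. The groups overlapped through the shallow GFP- replicate 3, the lowest of all 8 libraries, while the other ADAM12- libraries lay above every ADAM12+ library. On the log2 scale the difference was -0.59 ± 0.28 (95% interval -1.14 to -0.03, adjusted p = 0.201). Without GFP- replicate 3 it was -0.79 (adjusted p = 0.00513), and with limma on all libraries it was -0.70 (adjusted p = 0.046).

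Tapbp (chr17:33915899-33929292, plus strand) had 3267, 3388, 2758 and 4056 normalised counts in the GFP- and 3787, 2723, 3214 and 4470.2 in the GFP+ libraries, a similar range. Its log2 fold change was 0.07 ± 0.20 (95% interval -0.33 to 0.47, adjusted p = 0.906), and its sign turned when GFP- replicate 3 (-0.02) or GFP+ replicate 4 (-0.06) was left out. Of its 50-base words, 2.87% occur in other genes, and an exon of Zbtb22 on the same strand overlaps it by 88 bases.

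The 2 inducible proteasome subunits had unlike differences. Psmb8 (chr17:34197721-34201454, plus strand) had 906, 1051, 989 and 972 normalised counts in the GFP- and 1309.5, 897, 756 and 1130.3 in the GFP+ libraries. The ADAM12+ libraries lay on both sides of the narrow ADAM12- range. Psmb8 had a log2 fold change of 0.06 ± 0.21 (95% interval -0.35 to 0.47, adjusted p = 0.923), which turned to -0.06 without GFP+ replicate 1.

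Psmb9 had the lowest ratio of the 10 genes in the DESeq2 fit of all libraries, but not with limma, after thinning, with the melanocyte covariate or without GFP+ replicate 4. It lies at chr17:34181987-34187764 on the minus strand, head to head with Tap1, and had 373, 224, 264 and 391 normalised counts in the GFP- and 140.3, 132, 164 and 253 in the GFP+ libraries. Only GFP+ replicate 4 reached into the ADAM12- range. This difference was -0.87 ± 0.32 on the log2 scale (95% interval -1.50 to -0.25), just outside the threshold (DESeq2 adjusted p = 0.0616) and farther from it with edgeR (0.151), and it was -0.56 after thinning to the shallowest library (adjusted p = 0.616). Without GFP+ replicate 4 it was -1.12 (adjusted p = 0.00959), without GFP- replicate 2 it was -1.02 (adjusted p = 0.0468), and without any other single library it did not pass. With the replicate number as a block it was -0.87 (DESeq2 adjusted p = 0.0287).

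The starts of Tap1 and Psmb9 are 225 bases apart in RefSeq (chr17:34187331-34187555, GRCm38.p6), and this stretch is shown because this one promoter region is known to serve both genes. It is read on the plus strand toward Tap1, with the CCAAT box in capitals, a pattern that 33.8% of all windows hold on either strand.
Tap1/Psmb9: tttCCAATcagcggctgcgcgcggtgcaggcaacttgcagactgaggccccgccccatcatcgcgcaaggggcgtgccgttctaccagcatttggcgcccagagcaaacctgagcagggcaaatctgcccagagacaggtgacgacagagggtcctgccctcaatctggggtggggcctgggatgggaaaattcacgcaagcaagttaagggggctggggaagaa
No letters matching the ISRE or interferon-γ activation site core were found in it, which says only that these letters are not in this stretch. Exons of the annotated Tap1 and Psmb9 transcripts overlap by up to 212 bases on opposite strands, and the counting used strand.

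Nlrc5, the transactivator of class I genes (chr8:94434356-94527272, plus strand), had 1319, 1387, 1714 and 2366 normalised counts in the GFP- and 1235, 1027, 758 and 1333 in the GFP+ libraries. The highest ADAM12+ value, that of replicate 4, fell just inside the ADAM12- range. The log2 fold change was -0.64 ± 0.26 (95% interval -1.14 to -0.14, DESeq2 adjusted p = 0.0985, edgeR 0.141). Leaving out GFP- replicate 4, the highest library, took it to -0.42. With the replicate number as a block it was -0.63 (DESeq2 adjusted p = 0.0436).

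Cd274 (chr19:29367455-29388095, plus strand) had a larger SD relative to its mean within each group than any of the class I genes. Its normalised counts were 1106, 955, 692 and 1794 in the GFP- and 492, 396, 568 and 1398 in the GFP+ libraries. Of the ADAM12+ libraries, 3 lay below every ADAM12- library, and replicate 4 lay above 3 of the 4. On the log2 scale Cd274 differed by -0.68 ± 0.41 (95% interval -1.48 to 0.12, adjusted p = 0.349). It was -1.24 without GFP+ replicate 4 (adjusted p = 0.00236) and -0.37 without GFP- replicate 4 (adjusted p = 0.732). With the replicate number as a block it was -0.78 (DESeq2 adjusted p = 0.0172).

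**Figure D3:**
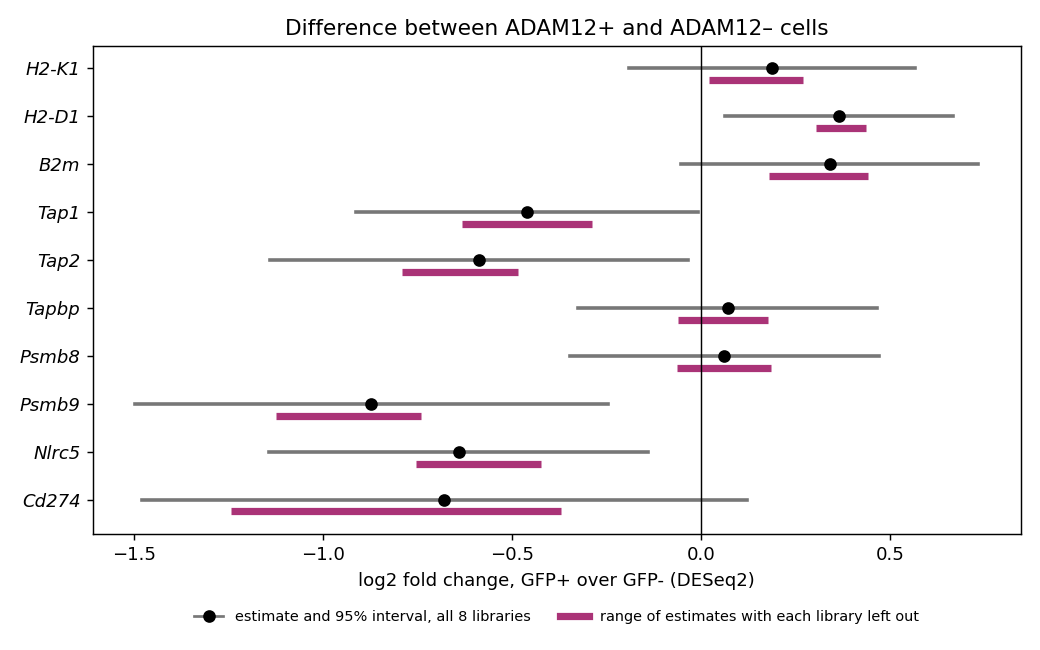
Log2 fold change (GFP+ over GFP-, horizontal axis) of each of the 10 genes. Black points and gray lines are the DESeq2 estimate and its 95% interval from all 8 libraries, and the purple bars span the estimates with each library left out, from -1.24 to -0.37 for Cd274 and across 0 for Tapbp and Psmb8.

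Several measured facts stood beside these differences. The group with the lower mean of Tap1, Tap2, Psmb9, Nlrc5 and Cd274 was also the one with fewer melanocyte transcripts. Among GFP- libraries the melanocyte sum had the same order as Cd274, highest in replicate 4 and lowest in replicate 3. Among GFP+ libraries replicate 4 was highest for both, but replicate 2 was second in the melanocyte sum and lowest in Cd274, and replicate 1 had the lowest melanocyte sum. With a melanocyte score as a covariate the log2 fold changes of Tap1, Tap2, Psmb9 and Cd274 turned to 0.39, 0.61, 0.15 and 1.34 and that of Psmb8 to -0.06. Those of H2-K1, B2m and Tapbp became 0.60, 1.03 and 0.55, that of Nlrc5 -0.17 and that of H2-D1 0.33, and 0 of the 10 genes were called. In that fit 43 genes were called in all, and because the melanocyte sums of the groups did not overlap, this score and the reporter state cannot be told apart. With a leukocyte score as covariate, 0 of the 10 genes were called and Cd274 was at -0.69, while without GFP- replicate 3 and GFP+ replicate 2 together, a choice made after seeing the data, Tap2 alone was called (-0.74, adjusted p = 0.0366). In sorted bulk samples, fewer expressing cells and less RNA per cell cannot be told apart.

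Per kilobase of exon, the scale on which genes can be compared, B2m was highest at 9903 ± 1388 normalised counts in GFP- cells and 12561 ± 2913 in GFP+ cells (SD, n = 4 each). H2-D1 followed at 3370.3 ± 217 and 4346 ± 671, H2-K1 at 2410.2 ± 279 and 2749 ± 636, and Tapbp at 928 ± 147 and 978 ± 207. Tap1 (325 ± 75.3), Cd274 (314 ± 130), Psmb8 (289.7 ± 17.6) and Tap2 (261 ± 88.0) came next in GFP- cells and did not differ from their neighbors in this order beyond the spread. Nlrc5 (199.7 ± 56.3) was within the spread of Tap2, and Psmb9 was lowest (85.5 ± 22.3 in GFP- and 47.1 ± 15.2 in GFP+ cells). In GFP+ cells Psmb8 (303 ± 72.6) led these lower genes, followed by Tap1 (237 ± 54.9), Cd274 (197 ± 127) and Tap2 (176 ± 39.8), each within the spread of its neighbor, and Nlrc5 (128 ± 29.9) was lower than Tap2 by more than their SDs. Lengths are unions of all annotated exons, so genes with long alternative transcripts are placed too low.

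Over the 8 libraries, Cd274 followed Tap1 most closely (Pearson's r = 0.94 of log2(normalised count + 1), Spearman's rho = 0.93), then Psmb9 (r = 0.89) and Tap2 (r = 0.83), and Tap1 and Psmb9, which share a promoter region, had r = 0.83. Tapbp had r from 0.50 to 0.77 with H2-K1, H2-D1 and B2m and from 0.32 to 0.67 with Tap1, Tap2, Psmb9, Nlrc5 and Cd274, and Psmb8 had r of at most 0.56 with any of the others. Without the libraries farthest from the median of Cd274, GFP- replicate 4 and GFP+ replicate 2, the r of Cd274 was 0.86 with Tap1 and 0.76 with Psmb9 over 6 libraries, and that of Tap1 with Psmb9 was 0.64. H2-D1 went with H2-K1 (r = 0.76) and B2m (r = 0.63) but had negative values with Tap1 (r = -0.43) and Psmb9 (r = -0.49). These are descriptions over 8 libraries that include the difference between the groups and share size factors, and no p is given.

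**Figure D4:**
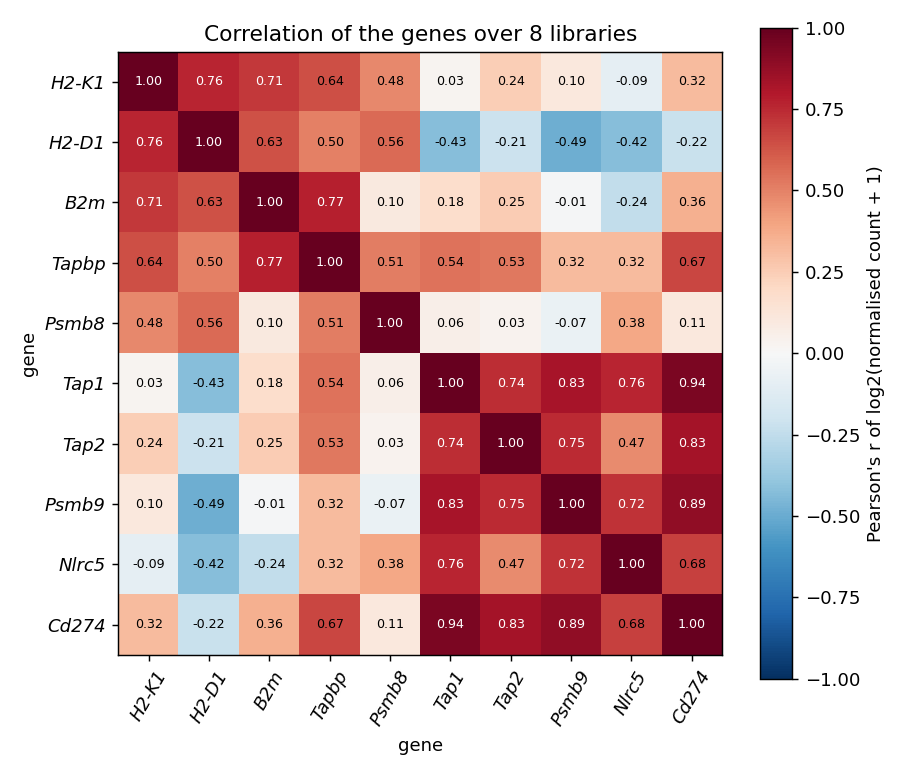
Pearson's r of log2(normalised count + 1) between each pair of the 10 genes over the 8 libraries, by color and number (axes, genes in the same order). Among Tap1, Tap2, Psmb9, Nlrc5 and Cd274 r runs from 0.47 to 0.94, and Tapbp has positive r with all other genes.

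The libraries of replicate 4 were high for most of the genes in both groups. GFP+ replicate 4 had the highest GFP+ value for 8 of the 10 genes, and GFP- replicate 4 the highest GFP- value for 6. GFP+ replicate 2 had the lowest GFP+ value for 7. The mean z-score of the 10 genes was 1.00 in GFP+ replicate 4 and 0.67 in GFP- replicate 4, against -0.86 in GFP+ replicate 2. Of 8786 other genes ranked by their correlation with this mean, those with the highest r were Olfr56 (0.91), Gbp2 (0.90), Parp9 (0.89), Uqcr11, Ptges3, Iigp1 (0.87), Erap1 (0.86), Nmi, Irgm1 and Tdp2. Gbp2, Iigp1 and Irgm1 are interferon-inducible GTPases, and Erap1 trims peptides for class I. The lowest r were those of Ier5 (-0.92), Ankrd46, Qk, Abce1 and Rnf19a. For Cd274 alone, the highest were Tgtp2 (0.97), Insig1 (0.96), Gbp11 (0.95), Parp9 (0.95) and Gm12250 (0.94), of which Tgtp2 and Gbp11 also encode interferon-inducible GTPases. Their own differences did not pass the test (adjusted p from 0.0717 for Tgtp2 to 0.704 for Parp9). These rankings are over 8 libraries and were taken from many genes.

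The other genes of the pathway were read from 5 lists of 99 genes, of which 88 were tested and 11 called, 8 higher and 3 lower in ADAM12+ cells. This share of 12.5% was near the 9.42% called over all genes, so the counts that follow describe single genes. Interferon signalling genes gave 5 of the 11 calls. Of 24 tested regulators and interferon signalling genes, 5 were higher and 0 lower in ADAM12+ cells, with a median log2 fold change of 0.26. All 5 belonged to the 13 tested interferon signalling genes: the receptor chains Ifngr1 (0.68 ± 0.16, DESeq2 adjusted p = 0.00106) and Ifnar2 (0.62 ± 0.20, adjusted p = 0.0306), the receptor kinase Jak1 (0.75 ± 0.20, adjusted p = 0.00349), and the feedback inhibitors Socs1 (0.93 ± 0.29, adjusted p = 0.0173) and Socs3 (0.73 ± 0.20, adjusted p = 0.00534). Each of these had no overlap between groups, as did 12.3% of all genes tested.

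Ifngr1, the ligand-binding chain of the interferon-γ receptor, had 914, 1011, 1066 and 928 normalised counts in the GFP- and 1293, 1520.4, 1828 and 1597 in the GFP+ libraries. Socs1, which blocks the kinases of this receptor, had 285, 463, 714 and 640.3 against 1185, 799, 1019 and 950.1. Every ADAM12+ library was above every ADAM12- library for both genes. Jak1, Ifngr1 and Socs3 were called by edgeR too (adjusted p = 0.0266, 0.0246 and 0.0297) and with each library left out. After thinning to the shallowest library Ifngr1 did not pass (0.55, adjusted p = 0.107), and with the melanocyte covariate none of the 5 did, with Jak1 at -0.03, Socs3 at 0.12, Socs1 at 0.41, Ifnar2 at 0.56 and Ifngr1 at 0.70. Socs1 (edgeR 0.0508) lost its call when GFP- replicate 2, or replicate 1 or 3 of GFP+, was left out (adjusted p from 0.0513 to 0.0783). Ifnar2 (edgeR 0.134, limma 0.112) lost its call in 6 of the 8 fits that left out a library (adjusted p from 0.0737 to 0.154).

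Of the 11 regulators of class I transcription, 0 were called by DESeq2 in either direction in the fit of all libraries, 0 had an unadjusted p under 0.05, and edgeR called 0. The most abundant were the NF-κB subunit Nfkb1 (log2 fold change 0.43 ± 0.25, adjusted p = 0.315) and Irf1, an interferon-induced activator of class I genes (0.27 ± 0.22, adjusted p = 0.546). Nfkb1 was called higher by limma. DESeq2 called it higher without GFP- replicate 3 (adjusted p = 0.00597), and without GFP- replicate 3 and GFP+ replicate 2 together. The kinase Jak2 (0.28 ± 0.23) and the signal transducer Stat2 (0.32 ± 0.21) did not pass either.

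Of 27 genes of antigen processing and loading, 0 were higher and 1 was lower, with a median of -0.08. The lower gene was Tapbpl, which encodes the tapasin-related peptide editor TAPBPR. It had 404, 317, 253 and 358 normalised counts in the GFP- and 165, 115, 118 and 226 in the GFP+ libraries. The groups did not overlap, and its log2 fold change was -1.12 ± 0.30 (DESeq2 adjusted p = 0.00497, edgeR 0.0535), or -0.38 and not called with the melanocyte covariate. The chaperones Calr (-0.08 ± 0.12), Canx (-0.23 ± 0.14), Pdia3 (0.08 ± 0.18) and Uggt1 (0.08 ± 0.20), which fold and load class I molecules, had small differences that did not pass. Without the shallow GFP- replicate 3, 9 genes were called, 8 lower (Canx among them) and 1 higher, and without GFP+ replicate 1 there were 2. Calls over all genes also rose without GFP- replicate 3, to 1837 of 15291, from 1439 of 15283 in the fit of all libraries. Limma called 5, Tapbpl, Psmb10, Psmb6 and the proteasome activator subunit Psme2 (-0.76, adjusted p = 0.0487) lower and the peptide-trimming aminopeptidase Lnpep (0.56, adjusted p = 0.0354) higher.

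Psmb10, the third inducible catalytic subunit, was singled out after its values were seen. It had 859, 568, 275 and 967 normalised counts in the GFP- and 551, 263, 247 and 358 in the GFP+ libraries. This difference of -0.93 ± 0.38 on the log2 scale did not pass with DESeq2 (adjusted p = 0.111) or edgeR (0.161). It was called by limma (0.0111) and by DESeq2 when GFP- replicate 3, GFP+ replicate 1, or GFP- replicate 3 together with GFP+ replicate 2 was left out. DESeq2 with the replicate number as a block called it too. Per kilobase, the ratio of the inducible subunits Psmb8, Psmb9 and Psmb10 to the constitutive Psmb5, Psmb6 and Psmb7 was 2.12, 1.31, 1.62 and 1.81 in the GFP- and 2.01, 1.21, 1.13 and 1.64 in the GFP+ libraries. The means of 1.72 ± 0.341 and 1.50 ± 0.408 differed by less than the spread, and the difference of -0.22 ran from -0.39 without GFP+ replicate 1 to -0.08 without GFP- replicate 1. None of the 17 constitutive proteasome genes was called by DESeq2 in the fit of all libraries, 2 had an unadjusted p under 0.05, and edgeR called 0. Limma called Psmb6 lower in ADAM12+ cells (log2 fold change -0.69, adjusted p = 0.0307). DESeq2 called Psmb6, Psma1 and Psma7 lower without GFP- replicate 3, and Psmb6 and Psma1 lower without GFP- replicate 3 and GFP+ replicate 2 together, the 2 libraries with the highest leukocyte marker score.

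Of 14 tested other class I genes, 2 were higher and 0 lower in ADAM12+ cells, and 12 had a positive log2 fold change, with a median of 0.45. Fcgrt, the neonatal Fc receptor that carries IgG and albumin and does not present peptide, had 722, 829, 1011 and 1063 normalised counts in the GFP- and 1578, 1277, 1415 and 1319 in the GFP+ libraries. Its groups did not overlap (0.63 ± 0.18, DESeq2 adjusted p = 0.00979, edgeR 0.0429), and the call was lost when replicate 1 or 2 of GFP-, or replicate 3 of GFP+, was left out (adjusted p from 0.0545 to 0.0695). H2-Q10, a gene for a secreted class I protein, had 0, 4.30, 22 and 9.45 against 9.72, 52.3, 53.0 and 80.2 (2.88 ± 0.96, adjusted p = 0.0324, edgeR 0.19), and its reads may be mixed with those of H2-K1. That call was lost in 6 of the 8 fits that left out a library. The most abundant others did not pass with DESeq2: H2-Q4 (0.49 ± 0.20), H2-T23 (0.43 ± 0.25), H2-T22 (-0.45 ± 0.27) and H2-Q6 (0.48 ± 0.33). Limma called H2-Q4 higher (0.61, adjusted p = 0.0497), and its 2 calls in the list were Fcgrt and H2-Q4, without H2-Q10. The list gave 4 calls without GFP- replicate 3 and 0 without GFP- replicate 2 or GFP+ replicate 3.

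Class II genes, which serve CD4+ T cells, showed 1 call of 11, the class II transactivator Ciita, a relative of Nlrc5. Ciita had 461, 414, 132 and 584 normalised counts in the GFP- and 18.1, 175, 49.9 and 155 in the GFP+ libraries. The groups overlapped only through the shallow GFP- replicate 3. The log2 fold change was -2.01 ± 0.60 (DESeq2 adjusted p = 0.0141, edgeR 0.0756), and the call was lost without GFP- replicate 4 (adjusted p = 0.0988) or GFP+ replicate 3 (0.0671). With the melanocyte covariate the sign of Ciita turned, to 2.18 (adjusted p = 0.590). Cd74 (-0.53 ± 0.37), H2-Ab1 (-0.14 ± 0.40), H2-Aa (-0.51 ± 0.46) and H2-Eb1 (0.12 ± 0.47) did not pass, and in each group they were highest in the library richest in leukocyte markers. With the leukocyte score as covariate 4 class II genes were called, all lower (Cd74, Ciita, H2-Aa and H2-DMa). All 19 leukocyte markers had a count, Cd8a and Nkg7 were at 0 in GFP- replicate 1 and GFP+ replicate 1, and S100a8 was at 0 in all libraries but GFP+ replicate 4.

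Of 12 tested inhibitory ligands and related genes other than Cd274, 1 was higher and 1 lower in ADAM12+ cells, with a median of -0.01. Cd47, the signal that restrains phagocytosis through SIRPα, had 2188, 2705, 2857 and 2236 normalised counts in the GFP- and 4591, 3706, 4768 and 5161 in the GFP+ libraries. Every ADAM12+ library was above every ADAM12- library, and the log2 fold change of 0.87 ± 0.17 passed with DESeq2 (adjusted p = 1.43e-05), with edgeR (0.00594) and with each library left out, but not with the melanocyte covariate (0.72, adjusted p = 0.936). Cd276 (B7-H3) had 554, 815, 472 and 356 against 212, 231, 397 and 333, which overlapped (-0.91 ± 0.32, adjusted p = 0.0488, edgeR 0.112), and its call was lost in 5 of 8 fits that left out a library. Lgals9 (0.40 ± 0.20), Pvr (-0.24 ± 0.24), Vsir (0.70 ± 0.44) and Icosl (0.40 ± 0.32) did not pass. The second PD-1 ligand, Pdcd1lg2, was at most 34.6 normalised counts in any library, and no difference was detectable at this depth.

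**Figure D5:**
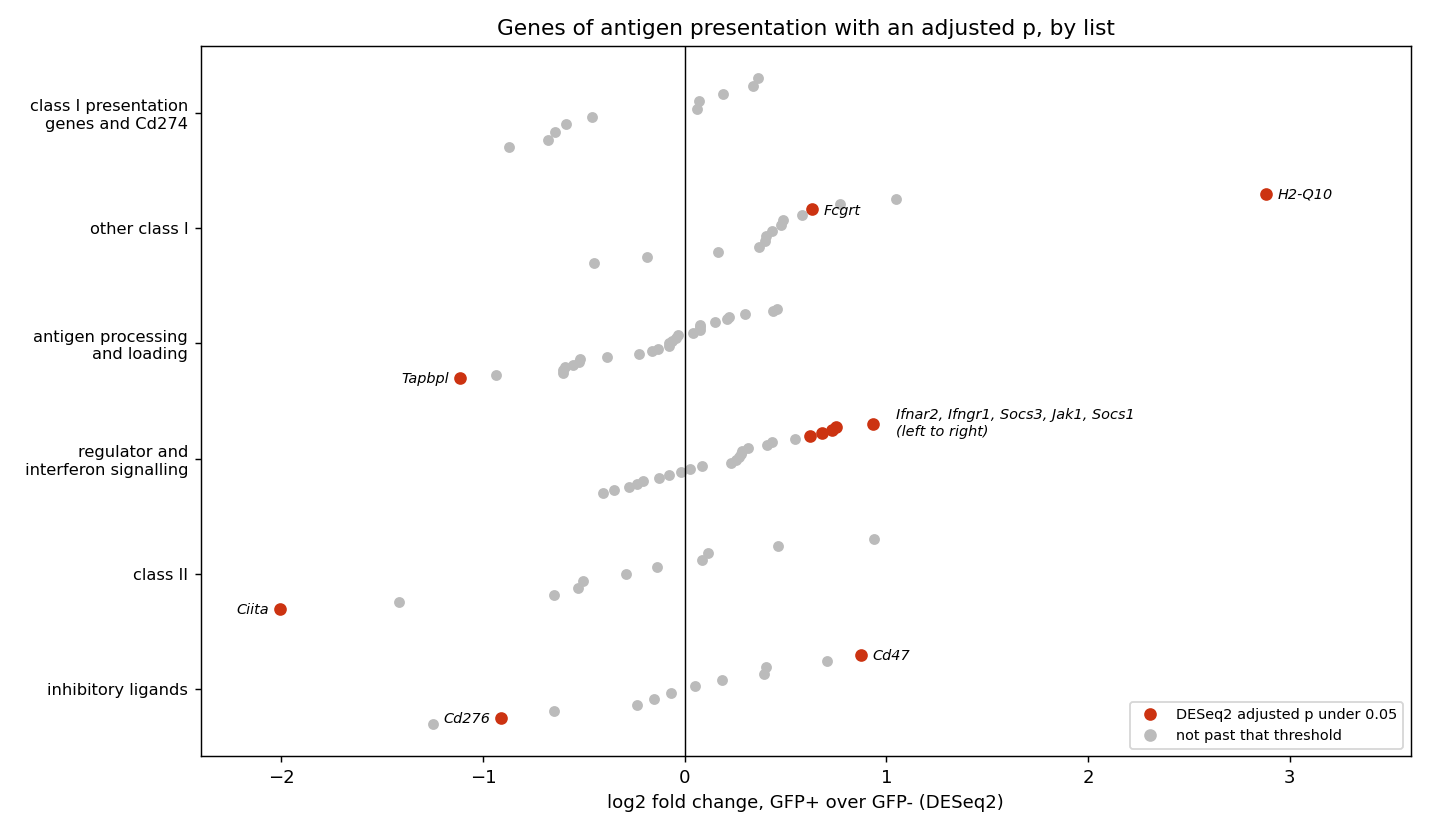
Log2 fold change (GFP+ over GFP-, horizontal axis) of every gene with an adjusted p, by list (vertical axis; points within a list are ordered by value). Red points passed the DESeq2 test at an adjusted p under 0.05 and gray points did not: none of the 10 genes at the top passed, and the 5 red interferon signalling genes lie between 0.62 and 0.93.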

How the data were processed

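RNA of 8 libraries had been sequenced after low-input stranded total RNA library preparation (SMARTer Pico). Per the submitters' processing notes and the study's methods, the authors trimmed reads with cutadapt 3.4, mapped them to GRCm38 with STAR 2.7.3a and counted them per Ensembl gene and strand with featureCounts 2.0.1. The authors deposited raw read counts per gene and library, used here, and normalised counts rounded to whole numbers (a score), used only to check size factors. Deposited columns of fold changes, dispersions and p-values were not used. Per-sample columns left unused: 0.

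Genes with a count (29043) were fitted with DESeq2 1.42.0 in R 4.3.3, the tool of the study's methods (here with group as the only term, two-sided Wald test, Benjamini-Hochberg adjustment over the 15283 genes left by independent filtering, adjusted p under 0.05). Normalised read counts are counts divided by DESeq2 size factors, errors of fold changes are standard errors, and intervals are 95% Wald intervals. Alternatives were edgeR 4.0.16 (quasi-likelihood), limma 3.58.1 (voom), TMM factors, other filters, libraries thinned to 883144 reads, leukocyte or melanocyte scores as covariates, the replicate number as a block, and each library left out. Marker shares were compared by exact permutation tests over 70 divisions. The code was tested on simulated data.

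Members and gene lists were chosen with earlier results of these data known. Named genes were the 10 members, every called list gene, up to 4 more per list with the highest mean, and the genes with the most similar patterns among those with a mean of at least 100. Coordinates are from GENCODE M21, in which 53620 of 53801 gene identifiers were found, and sequences from RefSeq. The labels give no batch.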

Additional observations from a re-analysis of the deposited data

Results flagged for a closer look

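Tap2 in GFP+ replicate 4, at 892 normalised read counts, stood apart from the other GFP+ libraries, which lay between 588 and 593 (gap over range 0.985). Of 26 sets of 4 libraries examined in this way it was the only one past the critical value, and chance gives about 1 in 20.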

How the results depend on the processing

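Of the 10 genes, 1 (Tap2) was called with limma, 1 (Tap2) without the 2 leukocyte-rich libraries, and 0 to 2 with each library left out. Calls over all genes, 1439, were 732 with edgeR, 767 after thinning, 43 with the melanocyte covariate, 844 at an adjusted p under 0.01, 924 with a fold minimum (absolute log2 value of 1), and 969 to 1837 with a library left out. Other class I calls, 2, were 1 with edgeR, a mean of at least 10 raw counts, no independent filtering, an adjusted p under 0.01 or the fold minimum, 0 after thinning or with the melanocyte covariate, and 0 to 4 with a library left out. Processing and loading calls, 1, were 0 with edgeR, thinning or the melanocyte covariate, 5 with limma, 6 without the leukocyte-rich libraries, and 1 to 9 with a library left out. Regulator and signalling calls, 5, were 3 with edgeR, thinning or an adjusted p under 0.01, 0 with the melanocyte covariate or the fold minimum, and 3 to 6 with a library left out. Class II calls, 1, were 0 with edgeR, the melanocyte covariate or an adjusted p under 0.01, 4 with the leukocyte covariate, and 0 to 1 with a library left out. Inhibitory ligand calls, 2, were 1 with edgeR, limma, TMM factors, no independent filtering, thinning, the leukocyte-rich libraries left out or an adjusted p under 0.01, 0 with the melanocyte covariate or the fold minimum, and 1 to 2 with a library left out. The log2 fold change of Tapbp turned to -0.0011 with limma, -0.0069 after thinning, -0.017 without GFP- replicate 3 and -0.061 without GFP+ replicate 4 (highest 0.179 with a library left out), and that of Psmb8 to -0.014 after thinning, -0.056 with the melanocyte covariate and -0.063 without GFP+ replicate 1 (highest 0.185). Those of Tap1, Tap2, Psmb9 and Cd274 turned to 0.39, 0.61, 0.15 and 1.34 with the melanocyte covariate. The leukocyte share difference (GFP+ minus GFP-, -0.00604 percentage points) turned to 0.00772 without GFP- replicate 3 and ranged down to -0.0152, and the melanocyte difference, -0.474 points, ranged from -0.564 to -0.362 with a library left out and was -0.324 without the most abundant marker, with an exact permutation p of 0.0571 without any one GFP+ library. The causes were not tested.

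Whether the replicate numbers mark pairs could not be settled. The correlations of same-numbered libraries' deviations from their group means were 0.05, -0.16, -0.12 and 0.26 over 8812 genes. That of replicate 4 (0.26) was the highest between any GFP- and GFP+ library, but not every library correlated best with its own number. With 4 libraries a group, these correlations can neither establish nor exclude pairing. With the replicate number as a block, 3 of the 10 genes were called, Cd274 (log2 fold change -0.78, adjusted p = 0.0172), Psmb9 (-0.87, 0.0287) and Nlrc5 (-0.63, 0.0436). That fit also called 3 processing and loading genes (Psmb10, Psme1 and Tapbpl) and 1 inhibitory ligand (Cd47). Over all genes it called 1492 of 14403.

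Depth limits Psmb9, Tap2 and Cd274 most in GFP- replicate 3. With 4 libraries a group, the 95% intervals of the 10 genes were 0.60 (H2-D1) to 1.6 (Cd274) log2 units wide.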
